A study of Mus musculus with 8 samples.

Results

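The macrophage and leukocyte genes of the embryonic mouse molar tooth germ are 34 genes that white blood cells, and above all tissue macrophages, are known to express. They were taken as all probe sets that the platform annotation names with exactly 1 of these genes, which gave 59 probe sets of 34945 single-gene probe sets on the array, with at least 1 for each of the 34 genes. The genes are of interest here because 2 of the 4 groups received an injected antibody, and antibodies are bound by Fc receptors of leukocytes. Levels were read on 8 Affymetrix arrays, 1 for each RNA sample of mandibular molar tooth germs, and are given as MAS5 signal, a probe set brightness on a linear scale.

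All embryos came from pregnant ICR mice, an outbred stock, injected once into the peritoneum at embryonic day 14, with germs dissected 24 hours later. The 5E1 group received 10 mg/kg of a monoclonal IgG1 antibody that binds the Shh protein and blocks it. The 40-1a group received 10 mg/kg of an IgG1 antibody against β-galactosidase, a bacterial enzyme, as a control antibody. The cyclopamine group received 10 mg/kg of an antagonist of Smo, the membrane protein that relays the Hedgehog signal, and the PBS group received 1 ml of buffer. There were 2 arrays a group, titled as biological replicates. How many embryos or litters went into a sample is not given in the labels, and all p-values therefore rest on sample-to-sample spread that may in part be technical.

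Tissue macrophages of the embryo arise from yolk sac and fetal liver precursors and seed organs before birth. They depend on the receptor Csf1r and on the transcription factor PU.1, encoded by Spi1. Through Fc receptors they bind antibody-coated particles, and the ITAM adaptor Fcer1g passes that signal into the cell, while Fcgr2b is an inhibitory Fc receptor. Tyrobp is the ITAM adaptor of Trem2 and other receptors. C1q, the first protein of the classical complement pathway, is made largely by macrophages and binds clustered antibody.

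Promoter windows from RefSeq (GRCm38.p6), running from 250 bases before to 50 after a gene's start, were found for 26 of the 34 genes, 32 windows in all. PU.1 is known to bind a purine-rich core, so the letters GAGGAA were sought on both strands. They stood in 20 of the 32 windows (62.5%), belonging to 18 genes, and in 28.3% of all 32851 windows. The letters GGAAGT, which overlap that motif in sites that hold both, stood in 15 of the 32 windows (46.9%) and in 23.8% of all windows. The longer AGAGGAAGT stood in 0 of the 32 and in 1.00% of all. A match is a description of these letters and no evidence of binding. The windows of Ptprc, F13a1 and Mrc1 are printed because, among the genes with a window, these tracked the other members most closely over the arrays, and that of Fcer1g because it encodes the signalling chain of the Fc receptors and holds no match. Ptprc and F13a1 have 2 windows each, of which the one with more matches is printed: the other window of Ptprc holds 0 matches and that of F13a1 holds 1. Cx3cr1, which tracked the others more closely than Fcer1g, also holds 0 matches. Capitals mark GAGGAA or its reverse complement.
Ptprc (chr1:138175256-138175555, - strand): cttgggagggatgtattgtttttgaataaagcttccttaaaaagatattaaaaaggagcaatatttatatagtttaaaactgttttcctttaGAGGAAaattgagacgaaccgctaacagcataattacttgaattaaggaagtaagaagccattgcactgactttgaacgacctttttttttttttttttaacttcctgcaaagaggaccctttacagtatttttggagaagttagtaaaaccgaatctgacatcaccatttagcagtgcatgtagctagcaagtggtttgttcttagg
F13a1 (chr13:37050195-37050494, - strand): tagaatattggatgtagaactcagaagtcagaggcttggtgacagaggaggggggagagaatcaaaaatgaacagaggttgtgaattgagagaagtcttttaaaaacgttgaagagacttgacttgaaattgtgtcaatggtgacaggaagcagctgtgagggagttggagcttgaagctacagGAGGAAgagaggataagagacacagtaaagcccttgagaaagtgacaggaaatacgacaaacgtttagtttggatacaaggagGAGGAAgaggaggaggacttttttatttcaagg
Mrc1 (chr2:14229164-14229463, + strand): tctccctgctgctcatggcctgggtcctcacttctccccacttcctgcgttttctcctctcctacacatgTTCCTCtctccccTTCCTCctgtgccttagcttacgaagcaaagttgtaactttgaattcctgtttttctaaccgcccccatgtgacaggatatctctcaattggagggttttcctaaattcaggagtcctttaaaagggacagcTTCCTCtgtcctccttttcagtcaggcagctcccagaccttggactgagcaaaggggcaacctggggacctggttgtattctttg
Fcer1g (chr1:171234300-171234599, - strand): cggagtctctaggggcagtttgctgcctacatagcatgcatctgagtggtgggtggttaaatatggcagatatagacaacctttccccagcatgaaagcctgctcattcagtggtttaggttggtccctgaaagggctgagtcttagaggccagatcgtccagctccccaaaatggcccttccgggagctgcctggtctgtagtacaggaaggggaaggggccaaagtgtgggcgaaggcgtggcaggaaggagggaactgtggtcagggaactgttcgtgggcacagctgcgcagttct
The first base of the match in Ptprc lay 158 bases before the start, and those in Mrc1 lay 180, 167 and 35 bases before it. In F13a1 one match began 66 bases before the start and the other lay past it.

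The injections and the make-up of the samples were checked on genes outside the list. Ptch1, which encodes the receptor for Shh and is itself induced by the signal, had signals of 2122 and 1552 on the 5E1 arrays, 11322 and 7180.1 on the 40-1a arrays, 9683 and 5793 on the cyclopamine arrays, and 9611 and 8474 on the PBS arrays. Its log2 difference was -2.31 for 5E1 minus 40-1a and -0.27 for cyclopamine minus PBS, and neither passed after adjustment over all genes by limma. Msx1, a transcription factor of the dental mesenchyme, ranged over 1426 to 6746, and Shh, the ligand of the dental epithelium, over 4549 to 9306. Arrays did not group by injection: by correlation over the tested genes outside the list, replicate 1 of 5E1, 40-1a and PBS formed a cluster, replicate 2 of 5E1, 40-1a and cyclopamine another, and cyclopamine replicate 1 and PBS replicate 2 the last.

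Of the 34 genes, 31 passed the filter on low values, which kept genes with a mean log2(signal + 9) of at least 6.12 over the 8 arrays, a signal of 60.5. Cd163, a scavenger receptor for haemoglobin, and the integrin chains Itgam and Itgb2 did not pass and were not tested. Cd163 had signals of 33.1 and 39.6 on the 5E1 arrays, 7.28 and 32.4 on the 40-1a arrays, 10.5 and 25.2 on the cyclopamine arrays, and 57.1 and 54.6 on the PBS arrays. Its highest values were those of the PBS arrays, but all of its values lay below the filter signal of 60.5. No order of the groups is read from them. Itgam ranged over 7.14 to 39.4 and Itgb2 over 10.6 to 122, both highest on PBS replicate 1. All other values below were tested in 1 limma fit over 12999 genes, with Benjamini-Hochberg adjustment and a threshold of 0.05. All differences are of log2(signal + 9), a scale that understates changes of dim genes.

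Whether an injected antibody alters the leukocyte genes of the germ was read from the mean of the 5E1 and 40-1a groups against the mean of the cyclopamine and PBS groups, 4 arrays against 4. No macrophage or leukocyte gene differed between them beyond the spread between arrays. The 31 log2 differences ran from -0.35 to 0.32 with a median of 0.01, beside a median of -0.02 over all 12999 genes, and 26 of the 31 lay within 1 SE of 0. By limma 0 of 31 passed (0% of all genes higher and 0% lower), 0 had an unadjusted p under 0.05 (0.5% of all genes higher and 0.685% lower), and the smallest adjusted p among the members was 1.00. The 4 arrays with antibody overlapped the 4 without for all 31 genes, where 0.585% of all genes were higher and 0.823% lower without overlap. For 28 of the 31 genes the 95% interval lay within 2-fold either way, and over all 31 its ends were -1.05 and 1.07. Differences of up to about that size are not settled by these arrays, and in whole germs fewer leukocytes and less RNA per leukocyte cannot be told apart. The side without antibody joins cyclopamine to PBS, so a shift after cyclopamine enters this comparison. Against PBS alone the members' median was -0.23 for cyclopamine, -0.16 for 40-1a and -0.12 for 5E1, with 0 called in each.

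Markers of the tissue itself leaned in the same comparison, with 0 called, where 43.9% of all genes were above 0. Of 12 endothelial markers 11 were lower with antibody (median -0.21), of 12 dental mesenchyme markers 11 were lower (median -0.36), and all 11 dental epithelium markers tested were higher (median 0.09). Their part in the members' values was not tested. Centring each array on its median gave a median of -0.14 over all genes, against -0.02 without it, and of -0.11 over the members, against 0.01, with 5 of 31 members higher in place of 17.

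**Figure D1:**
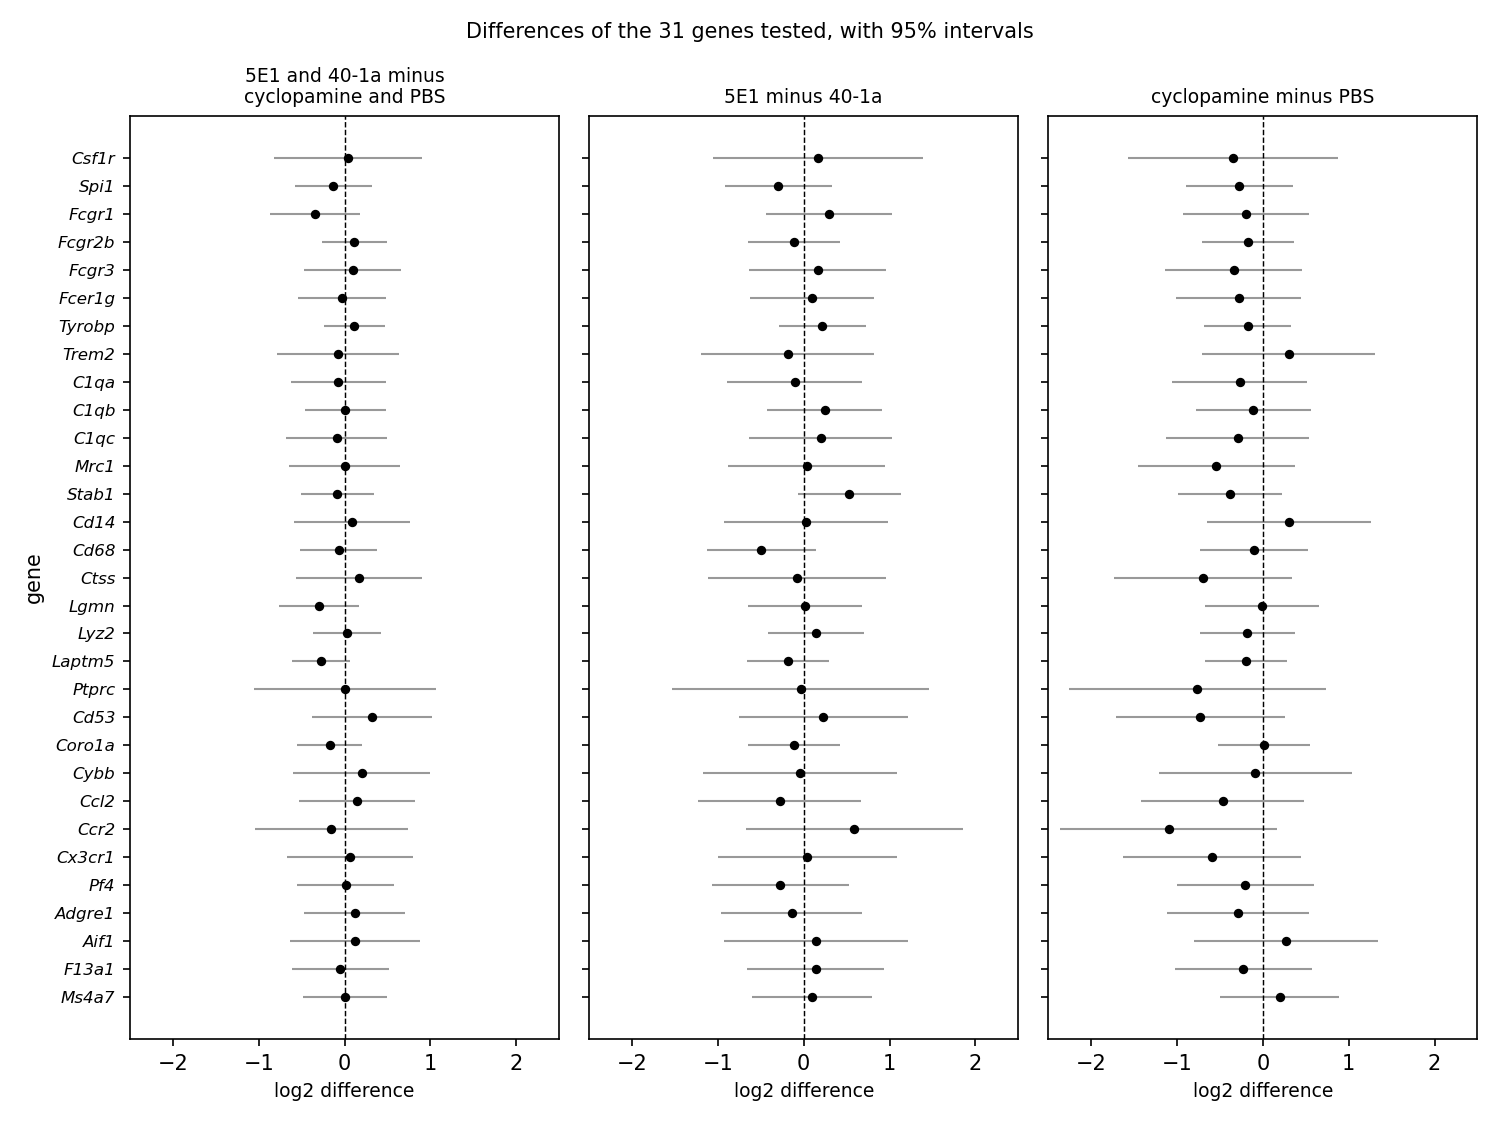
Log2 differences of the 31 genes tested, with 95% intervals from the limma fit (grey bars), for the antibody groups minus the groups without antibody (4 arrays against 4) and for 5E1 minus 40-1a and cyclopamine minus PBS (2 arrays against 2 each). In the left panel all points lie between -0.35 and 0.32 and every interval spans 0.

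The Fc receptors and ITAM adaptors, listed together with Trem2, held 6 members, all tested. For antibody minus no antibody 0 were called higher and 0 lower (0% of all genes each way). Fcgr1, the high-affinity IgG receptor, had signals of 169 and 131 on the 5E1 arrays, 149.7 and 95.8 on the 40-1a arrays, 148 and 174 on the cyclopamine arrays, and 208 and 165 on the PBS arrays. The 40-1a arrays were both below the PBS arrays, and the antibody arrays overlapped the others through 5E1 replicate 1 and 40-1a replicate 1. The difference of antibody minus no antibody was -0.35 (SE 0.22, 95% interval -0.87 to 0.17). The other tested probe set of Fcgr1 had the opposite sign, 0.40. Fcgr3, a low-affinity activating receptor, had signals of 305 and 156 on the 5E1 arrays, 203 and 187 on the 40-1a arrays, 166 and 175 on the cyclopamine arrays, and 252 and 189 on the PBS arrays. Its highest and its lowest value came from the same group, 5E1, and the difference was 0.09 (SE 0.24, 95% interval -0.47 to 0.66).

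Fcgr2b, the inhibitory receptor, had signals of 338 and 275 on the 5E1 arrays, 368 and 298 on the 40-1a arrays, 272 and 279.7 on the cyclopamine arrays, and 290.3 and 336 on the PBS arrays, a narrow range with overlapping groups. Its difference was 0.11 (SE 0.16, 95% interval -0.27 to 0.49). The adaptor Fcer1g, the signalling chain shared by the activating Fc receptors, had signals of 470.1 and 328 on the 5E1 arrays, 435 and 311 on the 40-1a arrays, 424 and 289 on the cyclopamine arrays, and 501 and 365 on the PBS arrays. In every group replicate 1 was the higher array, and all 4 groups overlapped, with a difference of -0.03 (SE 0.22, 95% interval -0.54 to 0.49).

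Tyrobp, the adaptor of Trem2 and other receptors, had signals of 838 and 594 on the 5E1 arrays, 639.6 and 574 on the 40-1a arrays, 524 and 615 on the cyclopamine arrays, and 633 and 652 on the PBS arrays. Only 5E1 replicate 1 stood away from the rest, and the difference was 0.11 (SE 0.15, 95% interval -0.24 to 0.47). Trem2, a lipid-sensing receptor of macrophages and microglia, was dim, at 67.5 and 57.3 on the 5E1 arrays, 98.4 and 52.04 on the 40-1a arrays, 101 and 62.5 on the cyclopamine arrays, and 50.1 and 78.6 on the PBS arrays. Its arrays were in no order that followed the injections, with a difference of -0.07 (SE 0.31).

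**Figure D2:**
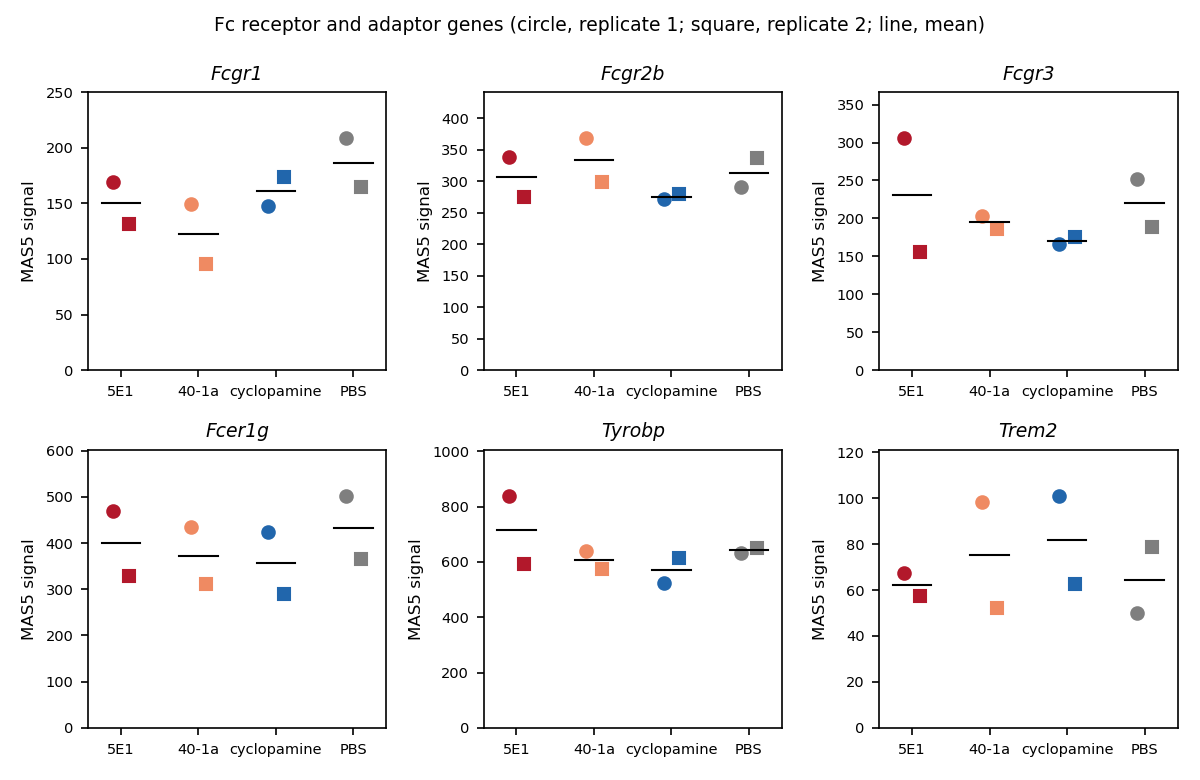
MAS5 signal of the 6 Fc receptor and ITAM adaptor genes on each array, by group (circles, replicate 1; squares, replicate 2; lines, group means; n = 2 a group, each axis from 0). The arrays of the 5E1 and 40-1a groups overlap those of the cyclopamine and PBS groups for every gene, and Fcer1g is higher on replicate 1 in all 4 groups.

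The 3 chains of complement C1q, which bind antibody clustered on a surface, did not differ beyond the spread between arrays with and without injected antibody. C1qa had signals of 623 and 297 on the 5E1 arrays, 442 and 485 on the 40-1a arrays, 411 and 445 on the cyclopamine arrays, and 596 and 448 on the PBS arrays. C1qc had signals of 413 and 213 on the 5E1 arrays, 258 and 258 on the 40-1a arrays, 296 and 238 on the cyclopamine arrays, and 411 and 261 on the PBS arrays. For both genes 5E1 replicate 1 and PBS replicate 1 were the 2 highest arrays and 5E1 replicate 2 the lowest. The differences of antibody minus no antibody were -0.07 (SE 0.24) for C1qa, 0.01 (SE 0.20) for C1qb and -0.09 (SE 0.25) for C1qc. C1qb ranged over 352 to 577 on the probe set used.

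Csf1r, the receptor for the macrophage growth factors Csf1 and Il34, had signals of 2187 and 805 on the 5E1 arrays, 1501 and 925 on the 40-1a arrays, 1335 and 867 on the cyclopamine arrays, and 1973 and 957 on the PBS arrays. Replicate 1 was the higher array in every group, by 1.43 on the log2 scale after 5E1, 0.69 after 40-1a, 0.62 after cyclopamine and 1.04 after PBS. The difference of antibody minus no antibody was 0.04 (SE 0.37, 95% interval -0.82 to 0.90). Spi1 had signals of 182 and 129.5 on the 5E1 arrays, 194 and 188 on the 40-1a arrays, 167 and 173 on the cyclopamine arrays, and 229 and 189 on the PBS arrays, flatter than Csf1r, with a difference of -0.13 (SE 0.19, 95% interval -0.57 to 0.31).

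Among scavenger and pattern receptors, Mrc1, the mannose receptor, had signals of 750.0 and 372 on the 5E1 arrays, 593 and 449 on the 40-1a arrays, 471 and 396 on the cyclopamine arrays, and 858 and 466 on the PBS arrays. Its difference was -0.00 (SE 0.28, 95% interval -0.65 to 0.65), and the spread lay between the replicates of 5E1 and of PBS. Stab1, a scavenger receptor of macrophages and sinusoidal endothelium, had signals of 302 and 263 on the 5E1 arrays, 179 and 207 on the 40-1a arrays, 187 and 249.9 on the cyclopamine arrays, and 319 and 253 on the PBS arrays. Both 40-1a arrays lay below both PBS arrays and below both 5E1 arrays, and both cyclopamine arrays lay below both PBS arrays too. Cd14, a co-receptor for bacterial lipopolysaccharide, ranged over 97.3 to 196 and Cd68, a lysosomal glycoprotein of macrophages, over 212 to 412, with differences of 0.09 (SE 0.29) and -0.07 (SE 0.19).

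Of the lysosome genes, Ctss, a protease that cuts antigens and the invariant chain, had signals of 1615 and 627 on the 5E1 arrays, 1209 and 939 on the 40-1a arrays, 932 and 562 on the cyclopamine arrays, and 1411 and 984 on the PBS arrays. It spanned 2.88-fold over the 8 arrays, with 5E1 replicate 1 highest and cyclopamine replicate 2 lowest. Its difference was 0.16 (SE 0.32, 95% interval -0.57 to 0.90). Lgmn, an asparaginyl protease not restricted to macrophages, had signals of 929 and 850.4 on the 5E1 arrays, 827 and 933 on the 40-1a arrays, 1290.3 and 911 on the cyclopamine arrays, and 826 and 1435 on the PBS arrays. It ran unlike the other members, with cyclopamine replicate 1 and PBS replicate 2 well above the other 6 arrays. Its difference was -0.30 (SE 0.20), Laptm5, a lysosomal membrane protein of blood cells, stood at -0.27 (SE 0.15), and Lyz2, lysozyme, at 0.03 (SE 0.17).

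The pan-leukocyte gene Ptprc, which encodes CD45, had signals of 250.2 and 55.7 on the 5E1 arrays, 152 and 100.4 on the 40-1a arrays, 115 and 71.9 on the cyclopamine arrays, and 218 and 118 on the PBS arrays. It spanned 4.49-fold, the widest range of the 31 genes, and both ends of it were 5E1 arrays. The low end, 55.7, lay below the filter signal of 60.5. The other probe set of Ptprc did not pass the filter and read 18.0 and 30.4 on the 5E1 arrays. On the probe set used, the difference of Ptprc was 0.01 (SE 0.46, 95% interval -1.05 to 1.07), the widest interval among the 31 genes. Cd53, a tetraspanin of leukocytes, had signals of 375 and 166 on the 5E1 arrays, 232 and 194 on the 40-1a arrays, 129.9 and 151 on the cyclopamine arrays, and 317 and 179 on the PBS arrays, with the largest positive difference of the list at 0.32 (SE 0.30, 95% interval -0.38 to 1.02). Coro1a, an actin-binding protein, and Cybb, the catalytic chain of the phagocyte oxidase, stood at -0.17 (SE 0.16) and 0.20 (SE 0.34).

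Ccl2, a chemokine that recruits monocytes and an early mark of inflammation, had signals of 95.98 and 54.6 on the 5E1 arrays, 82.96 and 97.6 on the 40-1a arrays, 43.8 and 81.97 on the cyclopamine arrays, and 86.1 and 87.4 on the PBS arrays. All but cyclopamine replicate 1 and 5E1 replicate 2 lay close together, and the difference was 0.14 (SE 0.29, 95% interval -0.53 to 0.81). Its receptor Ccr2, a marker of incoming monocytes, had signals of 112 and 61.7 on the 5E1 arrays, 83.1 and 32.02 on the 40-1a arrays, 31.6 and 72.00 on the cyclopamine arrays, and 132 and 97.99 on the PBS arrays. It was lowest on 40-1a replicate 2 and cyclopamine replicate 1, and the difference was -0.15 (SE 0.38, 95% interval -1.05 to 0.74). Cx3cr1, the fractalkine receptor, and Pf4, a chemokine of platelets that macrophages also express, stood at 0.07 (SE 0.32) and 0.01 (SE 0.24).

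The other macrophage markers passed no test either. Adgre1, which encodes the F4/80 antigen, had signals of 449 and 229 on the 5E1 arrays, 429 and 294 on the 40-1a arrays, 313 and 252 on the cyclopamine arrays, and 387 and 307 on the PBS arrays, with a difference of 0.12 (SE 0.25, 95% interval -0.47 to 0.70). F13a1, a transglutaminase chain of resident macrophages, had signals of 1277 and 636 on the 5E1 arrays, 908 and 738 on the 40-1a arrays, 905 and 748 on the cyclopamine arrays, and 1177 and 789 on the PBS arrays, with a difference of -0.05 (SE 0.24, 95% interval -0.62 to 0.51). Both were highest on 5E1 replicate 1 and lowest on 5E1 replicate 2. Aif1, the calcium-binding protein Iba1, stood at 0.12 (SE 0.33) and Ms4a7, a membrane protein of macrophages, at 0.00 (SE 0.21).

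How many of the 31 genes leaned up with antibody depended on single arrays. It was 17 of 31 over all arrays (43.9% of all genes). By plain means of the arrays left on each side, it was 4 without 5E1 replicate 1 and 23 without 5E1 replicate 2. By the same means it was 9 without PBS replicate 2, 11 without cyclopamine replicate 2 and 24 without PBS replicate 1. In the limma fits, which weigh the groups equally and so give other counts, the median difference ran from -0.15 to 0.19 over the 8 fits that each leave out 1 array.

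The control antibody alone, 40-1a against PBS, asks for an effect of IgG1 raised against a bacterial enzyme. Of the 31 genes 0 passed (0% of all genes higher and 0% lower), and 0 had an unadjusted p under 0.05 (0.3% of all genes higher and 0.377% lower). Differences ran from -0.997 for Ccr2 to 0.23 for Cd14, with a median of -0.16, and 10 of 31 were above 0 (49.3% of all genes). Both 40-1a arrays were below both PBS arrays for 5 genes (10.8% of all genes), namely Fcgr1, C1qc, Stab1, Laptm5 and Ccr2, and above them for 0 (9.69% of all genes). Fcgr1 stood at -0.59 (SE 0.32, 95% interval -1.33 to 0.14), Stab1 at -0.54 (SE 0.26, 95% interval -1.15 to 0.06) and Ccr2 had a 95% interval of -2.26 to 0.26. The other tested probe set of Fcgr1 was at 0.08 and that of Ccr2 at -0.06, and the 4 of Laptm5 ran from -0.58 to 0.13. Ccl2 was at 0.05 (SE 0.41). Without PBS replicate 1 the median was 0.05, without PBS replicate 2 it was -0.36, and without 40-1a replicate 2 it was -0.04. The endothelial and dental mesenchyme marker lists had medians of -0.36 and -0.50 in the same comparison, and their part in these values was not tested.

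Blocking Shh with antibody injection held equal, 5E1 against 40-1a, left the members without a call as well, with 0 of 31 past the threshold (0% of all genes higher and 0% lower) and 0 at an unadjusted p under 0.05 (0.438% of all genes higher and 0.777% lower). The median was 0.03, and 18 of 31 were above 0 (46.6% of all genes). C1qb and Stab1 were higher after 5E1 without overlap (8.65% of all genes), and Spi1, Cd68 and Laptm5 lower (10.8% of all genes). Stab1 was at 0.53 (SE 0.26, 95% interval -0.07 to 1.13) and Cd68 at -0.49 (SE 0.27, 95% interval -1.12 to 0.14), Spi1 at -0.29 (SE 0.27). Directions turned with the probe set for Laptm5, whose 4 tested probe sets ran from -0.18 (the one used) to 0.84, and for C1qb, whose 3 ran from -0.02 to 0.25 (the one used). The dental mesenchyme markers had a median of -0.35 here, with 11 of 12 lower, and the endothelial markers -0.10, with 8 of 12 lower, and their part was not tested. The median depended on single arrays and was -0.34 without 5E1 replicate 1, with 4 of 31 genes higher, and 0.40 without 5E1 replicate 2, with 27 of 31 higher. Without 40-1a replicate 1 it was 0.20 and without 40-1a replicate 2 it was -0.16.

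Cyclopamine against PBS gave the most one-sided picture, with 26 of 31 genes lower and 5 higher (53.1% of all genes were higher). Both cyclopamine arrays lay below both PBS arrays for 13 of the 31 genes (14.4% of all genes) and above them for 0 (17.8% of all genes). The 13 were Spi1, Fcgr2b, Fcgr3, Tyrobp, C1qa, Stab1, Ctss, Laptm5, Ptprc, Cd53, Ccl2, Ccr2 and Cx3cr1. The median difference was -0.23, beside 0.02 over all genes, and by limma 0 of 31 passed (0% of all genes higher and 0% lower; smallest adjusted p among the members 0.982), with 0 at an unadjusted p under 0.05 (0.639% of all genes higher and 0.939% lower). Ccr2 was the single member at least 2-fold lower without overlap (0.646% of all genes). This held for the probe set used. The other tested probe set of Ccr2 stood at -0.39, and its arrays overlapped, at 47.3 and 60.1 after cyclopamine and 94.6 and 55.0 after PBS.

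Single values for cyclopamine minus PBS were -1.10 (SE 0.54, 95% interval -2.36 to 0.16) for Ccr2, -0.76 (SE 0.65, 95% interval -2.26 to 0.74) for Ptprc, -0.73 (SE 0.42, 95% interval -1.71 to 0.25) for Cd53 and -0.70 (SE 0.45, 95% interval -1.73 to 0.34) for Ctss. Trem2, Cd14, Aif1, Ms4a7 and Coro1a had values above 0, the highest 0.30 (SE 0.41) for Cd14. The list's median was -0.09 without PBS replicate 1, -0.46 without PBS replicate 2, -0.25 without cyclopamine replicate 1 and -0.19 without cyclopamine replicate 2. In the same comparison the endothelial markers had a median of -0.41, the dental mesenchyme markers -0.56, the dental epithelium markers 0.30 and the skeletal muscle markers 1.15. The muscle markers differed widely within groups, and the arrays overlapped. Relative to each gene's own mean, they averaged -0.45 and 1.62 on the cyclopamine arrays and -0.08 and -1.01 on the PBS arrays. On the 40-1a arrays they averaged -1.62 and 1.39. With the array cluster as a block, a setting added after seeing the data, the members' median was -0.04. The part of the marker lists in this result was not tested.

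The comparisons with PBS share their PBS arrays, so their values are not independent of each other. For 5E1 against PBS 0 of 31 genes passed (0% of all genes higher and 0% lower), with differences from -0.46 for Laptm5 to 0.33 for Aif1 and a median of -0.12. There 9 of 31 were above 0 (47.3% of all genes), and 0 had an unadjusted p under 0.05 (0.477% of all genes higher and 1.01% lower). Spi1, Cd68, Laptm5 and Coro1a were lower without overlap (12.4% of all genes) and 0 were higher (9.95% of all genes). The median was -0.50 without 5E1 replicate 1, 0.26 without 5E1 replicate 2, 0.10 without PBS replicate 1 and -0.34 without PBS replicate 2. In this comparison all 12 dental mesenchyme markers were lower (median -0.87, 2 at an unadjusted p under 0.05 by limma), all 12 endothelial markers were lower (median -0.39) and all 11 dental epithelium markers tested were higher (median 0.36), with 0 called, and their part was not tested.

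The difference between the agents themselves, the 5E1 effect minus the cyclopamine effect, passed for 0 of 31 genes (0% of all genes higher and 0% lower). The median was 0.32, and 23 of 31 were above 0 (45.2% of all genes). Stab1 alone was under 0.05 before adjustment, at 0.0388 by limma with a log2 value of 0.91 (SE 0.37) and an adjusted p of 1.00 (0.723% of all genes higher and 0.715% lower at that level). On the probe sets used, Ccr2 had the largest difference at 1.69 (SE 0.77, 95% interval -0.10 to 3.47).

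Levels also varied between the arrays of a group. After 5E1, replicate 1 was above replicate 2 for 31 of 31 genes (50.2% of all genes), with a median of 0.72 on the log2 scale. The excess was at least 2-fold for 8 genes (5.35% of all genes). After PBS, replicate 1 was the higher for 24 of 31 genes (50.1% of all genes), with a median of 0.40. After 40-1a it was the higher for 24 of 31 (51.8% of all genes), with a median of 0.28, and after cyclopamine for 18 of 31 (55.6% of all genes), with a median of 0.20. An excess of at least 2-fold was seen for 1 gene after 40-1a (4.06% of all genes), for 0 after cyclopamine (2.66% of all genes) and for 3 after PBS (2.02% of all genes). These are single pairs of arrays with no test, and the labels name nothing that replicate 1 arrays share.

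Ptprc had the largest such gap, 2.00 after 5E1, where Csf1r (1.43), Ctss (1.35) and Cd53 (1.13) came next. The largest gap was 1.31 for Cybb after PBS and 1.17 for Ccr2 after 40-1a. Of the 31 genes, 14 had their highest value on 5E1 replicate 1 and 9 on PBS replicate 1, while 14 had their lowest on 5E1 replicate 2. On 5E1 replicate 1 27 of 31 genes were above their own mean, on PBS replicate 1 28 and on 40-1a replicate 1 23. On the other arrays this held for 12 (PBS replicate 2), 11 (cyclopamine replicate 1), 7 (cyclopamine replicate 2), 4 (40-1a replicate 2) and 1 (5E1 replicate 2).

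**Figure D3:**
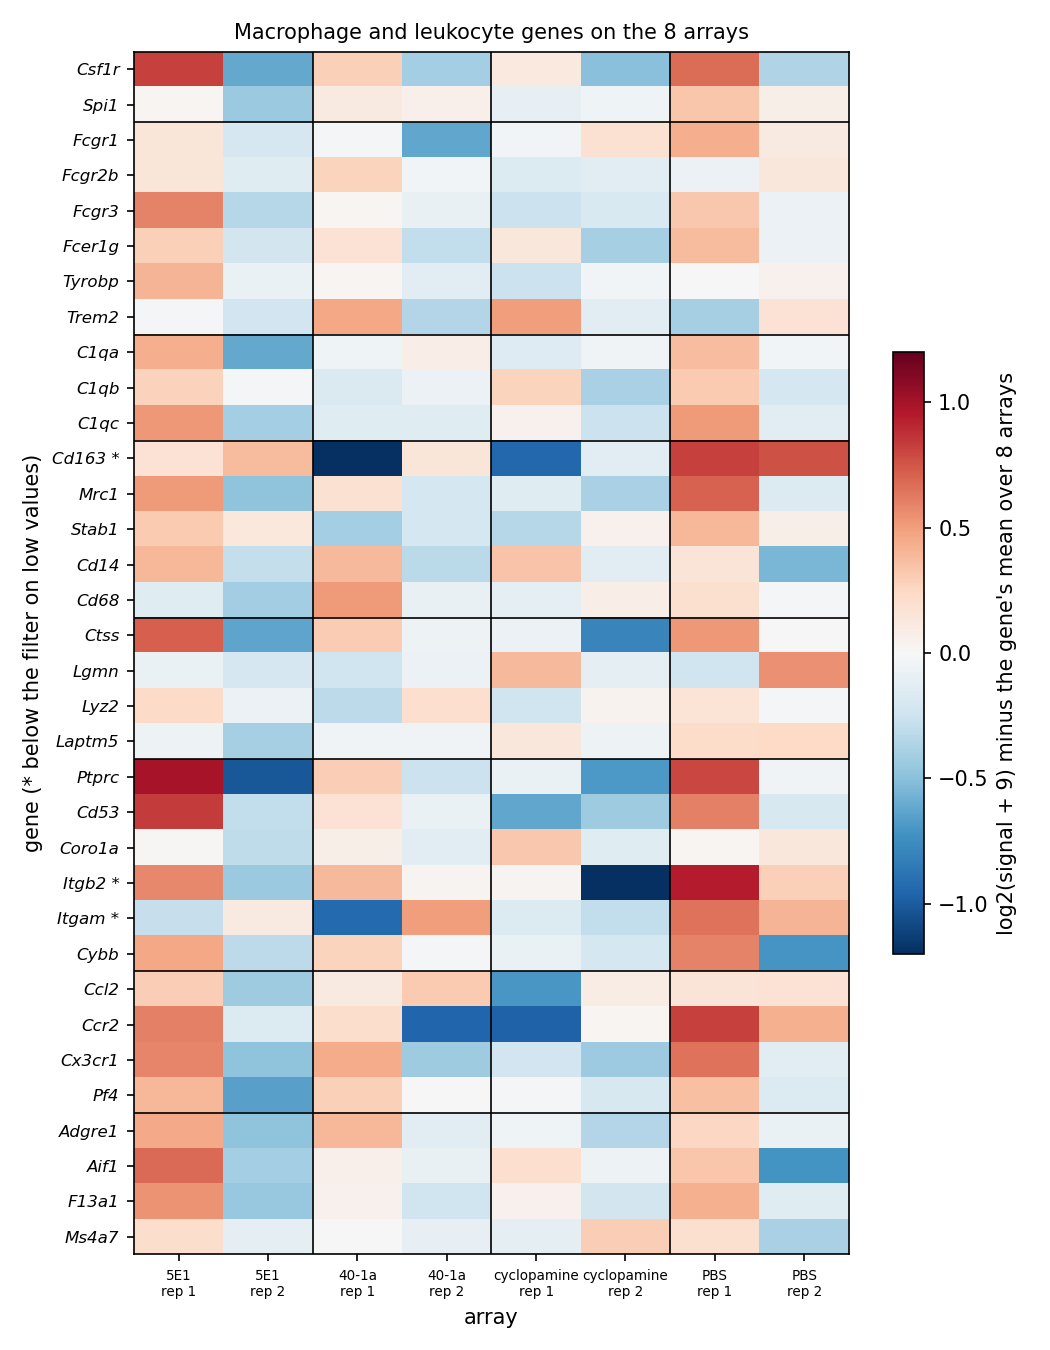
Log2(signal + 9) of the 34 genes on the 8 arrays, each minus the gene's mean over the arrays (red above it, blue below it). Horizontal lines part the roles, vertical lines the groups, and a star marks the 3 genes below the filter. The columns of 5E1 replicate 1, PBS replicate 1 and, more faintly, 40-1a replicate 1 are mostly red, and that of 5E1 replicate 2 is mostly blue.

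The members did not all follow this pattern equally. As a description over 8 arrays that share tissue make-up, Pearson's r between a gene and the mean of the other 30 was 0.98 for Ptprc, 0.97 for F13a1, 0.97 for Mrc1 and 0.96 for Csf1r. It was at least 0.9 for 10 of the 31 members (2.24% of the tested genes outside the list reached that against the members' mean). Fcer1g was at 0.86 and Spi1 at 0.72, while Lyz2 (0.27), Trem2 (-0.00) and Lgmn (-0.23) ran apart. Over all 465 pairs of members the median r was 0.47. The C1q chains had a median of 0.78 over 3 pairs and the Fc receptors and adaptors 0.40 over 15.

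Probe sets of the same gene did not always tell the same story. Of 9 genes with several tested probe sets, all had the same sign for antibody minus no antibody in 3. The sign turned with the probe set for C1qb, Ccr2, Csf1r, Fcgr1, Fcgr2b and Laptm5. Laptm5 also ran from -0.44 to 0.30 for cyclopamine minus PBS and from -0.46 to 0.37 for 5E1 minus PBS. Csf1r was read above from its brightest probe set; another, with signals of 360.1 and 374 on the 5E1 arrays, 240.4 and 277 on the 40-1a arrays, 351 and 287 on the cyclopamine arrays, and 390.4 and 419 on the PBS arrays, showed no such gap between replicates. The remaining one, at 697 and 248 on the 5E1 arrays, 497 and 289.5 on the 40-1a arrays, 430.5 and 344 on the cyclopamine arrays, and 652 and 466 on the PBS arrays, had replicate 1 higher in every group, as the brightest did. Laptm5 did the reverse. The probe set used had smaller gaps between replicates, at 412 and 325 on the 5E1 arrays, 418 and 416 on the 40-1a arrays, 473 and 412 on the cyclopamine arrays, and 502 and 510.2 on the PBS arrays. Another read 698 and 251 on the 5E1 arrays, 476 and 268 on the 40-1a arrays, 432 and 241 on the cyclopamine arrays, and 592 and 328 on the PBS arrays, with replicate 1 higher in every group. With all 46 tested probe sets of the members as separate features, limma called 0 in each of the 6 comparisons.

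The marker lists of the tissue moved with the same arrays. The 31 members had mean centred log2 values, each gene taken relative to its own mean over the arrays, of 0.37 and -0.35 on the 5E1 arrays, 0.12 and -0.16 on the 40-1a arrays, -0.07 and -0.18 on the cyclopamine arrays, and 0.33 and -0.07 on the PBS arrays. For 12 endothelial markers, the lining of vessels, the values were 0.35 and -0.57 on the 5E1 arrays, 0.09 and -0.24 on the 40-1a arrays, 0.10 and -0.30 on the cyclopamine arrays, and 0.35 and 0.21 on the PBS arrays. For 12 dental mesenchyme markers they were 0.33 and -1.12 on the 5E1 arrays, 0.39 and -0.36 on the 40-1a arrays, 0.49 and -0.59 on the cyclopamine arrays, and 0.30 and 0.56 on the PBS arrays. The members and the endothelial markers thus stood on the same side of their mean on every array but cyclopamine replicate 1 and PBS replicate 2. The members and the mesenchyme markers parted on those same arrays, where the mesenchyme was high.

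The 11 dental epithelium markers tested were at -0.21 and 0.54 on the 5E1 arrays, -0.33 and 0.30 on the 40-1a arrays, -0.10 and 0.25 on the cyclopamine arrays, and -0.34 and -0.11 on the PBS arrays. On every array they stood on the opposite side of their mean from the endothelial and mesenchyme markers. They stood opposite to the members on every array but cyclopamine replicate 1 and PBS replicate 2. The summed signal of the 34 members was 16999 and 9763 on the 5E1 arrays, 13704 and 11569 on the 40-1a arrays, 12730.3 and 10759.7 on the cyclopamine arrays, and 16268 and 12477 on the PBS arrays. That of the 12 endothelial markers was 8269 and 4909 on the 5E1 arrays, 7394 and 6586 on the 40-1a arrays, 8045 and 6203 on the cyclopamine arrays, and 8467 and 8357 on the PBS arrays. The part of vessel or mesenchyme content in the members' levels was not tested.

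**Figure D4:**
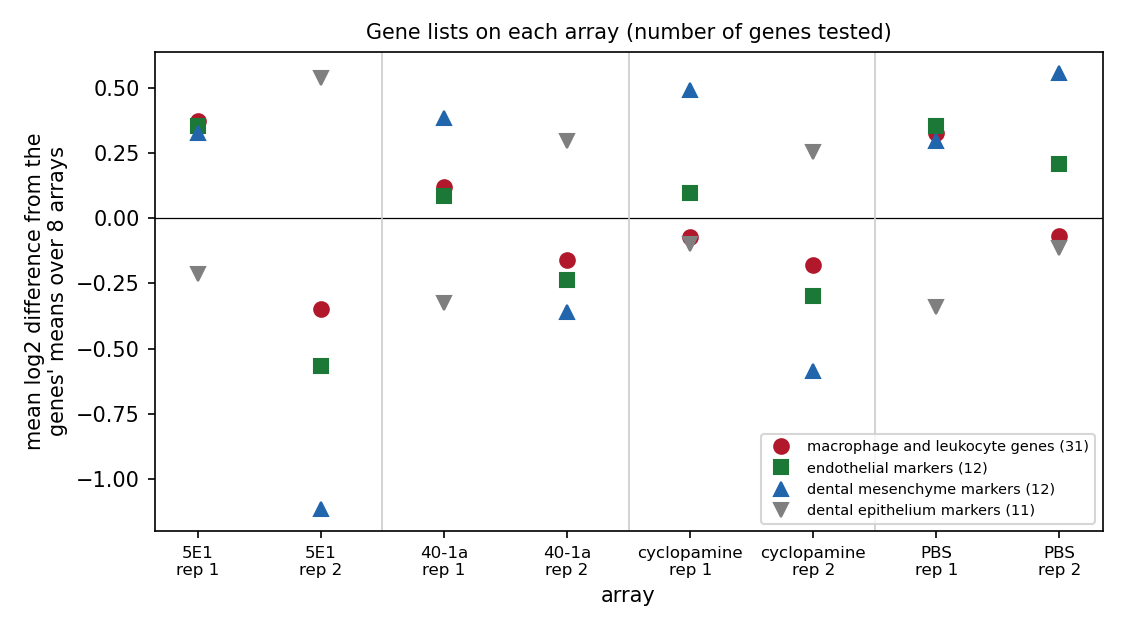
Mean log2 level of each gene list on each array, relative to the genes' own means over the 8 arrays, for the 31 macrophage and leukocyte genes, 12 endothelial, 12 dental mesenchyme and 11 dental epithelium markers. The macrophage points (circles) lie highest on replicate 1 of 5E1 and PBS (0.37 and 0.33) and lowest on replicate 2 of 5E1 (-0.35).

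Other genes of phagocytes and antibody handling, grouped on lists by their known function, gave no call either. For antibody minus no antibody 0 of 22 tested macrophage surface and lysosome genes, 0 of 23 leukocyte signalling and cytoskeleton genes, 0 of 11 macrophage transcription and growth factor genes, 0 of 9 complement genes other than C1q and 0 of 4 Fc receptor and IgG handling genes passed. Their medians were -0.03, 0.03, -0.02, 0.04 and -0.01. Fcgrt, the neonatal Fc receptor that carries maternal IgG across the placenta and yolk sac, had signals of 1662 and 849.9 on the 5E1 arrays, 1551 and 1087 on the 40-1a arrays, 1810.3 and 977 on the cyclopamine arrays, and 1897 and 1557 on the PBS arrays. Its arrays overlapped, and its difference was -0.28 (SE 0.28).

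Markers of activation gave no call. Of 14 inflammatory cytokine genes and early targets and 12 interferon-induced genes 0 passed, with medians of 0.03 and -0.05. Of the 5 tested genes of MHC class II, which presents antigen, 0 passed (median 0.00). H2-Ab1, one of its chains, had signals of 192 and 266 on the 5E1 arrays, 156 and 62.7 on the 40-1a arrays, 248 and 281 on the cyclopamine arrays, and 187 and 163 on the PBS arrays, lowest on 40-1a replicate 2.

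Runx1, a blood and skeletal transcription factor, had signals of 398 and 367 on the 5E1 arrays, 376 and 327 on the 40-1a arrays, 195 and 229.7 on the cyclopamine arrays, and 332 and 384 on the PBS arrays. For antibody minus no antibody its unadjusted p was 0.0337 by limma (log2 0.40 (SE 0.15), adjusted p = 1.00). Only the cyclopamine arrays of Runx1 stood apart, with group means of 382 after 5E1, 352 after 40-1a, 213 after cyclopamine and 358 after PBS. Fgr, a kinase of myeloid cells, had signals of 69.4 and 41.8 on the 5E1 arrays, 52.3 and 65.4 on the 40-1a arrays, 100.3 and 74.3 on the cyclopamine arrays, and 159 and 84.6 on the PBS arrays and an unadjusted p of 0.0382 by limma (log2 -0.74 (SE 0.30), adjusted p = 1.00). In that comparison these were the genes on the added lists of blood, immune and tissue cells with an unadjusted p under 0.05, and neither passed.

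Markers of other blood cells were in part below the filter, and none of those tested passed. Of 13 lymphocyte markers with a probe set only 1, Cd8a, passed the filter, and of 15 neutrophil markers 5 did, among them Mmp9, which osteoclasts also make, at 1502 and 426 on the 5E1 arrays, 1036 and 678 on the 40-1a arrays, 1164 and 751 on the cyclopamine arrays, and 1131 and 1357 on the PBS arrays. Of 7 mast cell markers 4 were tested, of 10 osteoclast markers 5, of 9 platelet markers 6 and of 13 red cell markers 9, with 0 called in each of these lists. For antibody minus no antibody all 4 mast cell markers were above 0 (median 0.24), all 5 neutrophil markers below 0 (median -0.17) and 7 of 9 red cell markers above 0 (median 0.11). Of all genes 43.9% were above 0. By list means, arrays with antibody overlapped those without for each of these lists. Mast cell markers had mean centred log2 values of 0.26 and 0.18 on the 5E1 arrays and -0.56 and 0.60 on the 40-1a arrays. They had -0.45 and 0.42 on the cyclopamine arrays and 0.26 and -0.72 on the PBS arrays. The osteoclast protease gene Ctsk had signals of 1983 and 743 on the 5E1 arrays, 1646 and 1127 on the 40-1a arrays, 1506 and 1091 on the cyclopamine arrays, and 1704 and 1956 on the PBS arrays, with replicate 1 above replicate 2 in every group but PBS. Red cell markers had a summed signal of 5785 and 4474 on the 5E1 arrays, 7721 and 3352 on the 40-1a arrays, 10217 and 2389.9 on the cyclopamine arrays, and 5505 and 3903 on the PBS arrays.

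The genes outside the list whose levels ran most like the members' mean over the 8 arrays were Gap43, Fyb, Tnmd, Pnp, Slc24a3, Galnt1, Ccny, Rheb, Fkbp14 and Abi3bp, with Pearson's r of 0.98 to 0.99 as a description. Fyb, an adaptor of blood cells, was also on the list of leukocyte signalling genes and had signals of 220.2 and 94.9 on the 5E1 arrays, 169 and 121 on the 40-1a arrays, 124 and 125 on the cyclopamine arrays, and 221 and 145 on the PBS arrays. Gap43, a protein of growing axons, had signals of 679 and 223 on the 5E1 arrays, 416 and 283 on the 40-1a arrays, 324 and 274 on the cyclopamine arrays, and 669.8 and 347 on the PBS arrays. Tnmd, a marker of tendon, had signals of 1112 and 363 on the 5E1 arrays, 819 and 537 on the 40-1a arrays, 556 and 561 on the cyclopamine arrays, and 997 and 631 on the PBS arrays. All 3 were highest on replicate 1 of 5E1 and PBS and lowest on 5E1 replicate 2, although Gap43 and Tnmd are known from nerve and tendon.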

How the data were processed

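Signals are used as the authors deposited them: an intensity per probe set, unlogged, from MAS5 per the submitters' processing notes. The sources used here give neither its version nor the scan batches. Each sample's cRNA came from 5 µg RNA, per the labels' protocols. With 2% trimmed at both ends, arrays averaged 500.0 alike, and they were not rescaled. Precision is limited by the number of arrays, which leave 4 residual degrees of freedom.

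The platform annotation named exactly 1 gene for 34945 of 45101 probe sets, 34741 of them with symbols updated by gene ID. For each of 18193 genes the brightest probe set by mean log2(signal + 9) was taken (10th percentile of all values 8.80). The filter was the 40th percentile over probe sets and left 12999 genes. They were fitted with limma 3.58.1 in R 4.3.3 (lmFit, contrasts.fit, eBayes with trend) as 4 group means over all arrays, Benjamini-Hochberg adjusted at 0.05, with 95% intervals. The fit was tested on simulated data, with 200 of 12999 genes changed in the antibody groups. For antibody against no antibody it recovered 43.5% of changes of log2 size 1, 88% of size 2 and 97% of size 3. The simulated noise was normal and independent between genes and arrays, with 1 mean a gene apart from the planted changes. The real arrays share differences over many genes and gave 0 calls in this comparison. These percentages are therefore no measure of what the fit would find in the real data. Even in the simulation many changes of log2 size 1 were missed.

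Members, the 18 other lists (297 genes) and the tests were chosen with earlier results of these data known. Named genes are all members, up to 2 of each list by p for antibody against no antibody, the targets Ptch1 and Gli1, and the 10 genes most like the members' mean; not all of these are printed. Gli1 differed by -2.22 for 5E1 minus 40-1a. It was not lower after cyclopamine, with signals of 2157 and 1193 (mean 1675) against 1070 and 2143 on the PBS arrays (mean 1607). Alternatives were other scalings, pseudocounts, filters, probe set rules, fits and blocks, and leaving out each array; the array cluster block was added after seeing the data. No block was used in the main fit, since the labels name no pairing.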

Additional observations from a re-analysis of the deposited data

How the results depend on the processing

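No member passed in the 6 comparisons under any alternative setting by limma (3760 values, smallest adjusted p 0.702 for Ccr2 in cyclopamine against PBS with the replicate block). Signs were less stable. For antibody minus no antibody, 67 of 248 member differences changed sign when 1 array was left out and 33 of 358 under the other settings. The median difference of the members with 1 array left out ran from -0.15 to 0.19 for antibody minus no antibody, -0.36 to 0.05 for 40-1a minus PBS, -0.34 to 0.40 for 5E1 minus 40-1a, -0.46 to -0.09 for cyclopamine minus PBS, -0.50 to 0.26 for 5E1 minus PBS and -0.13 to 0.62 for the 5E1 effect minus the cyclopamine effect. A group left with 1 array is assumed to vary like the others. The array behind each end is 5E1 replicate 1 or 2 or a PBS array.

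Over all genes, a rule of 2-fold with no overlap, in place of limma (0 genes in each comparison), gave 7 genes for antibody minus no antibody, 54 for 40-1a, 86 for 5E1 minus 40-1a, 123 for cyclopamine (1 of them a member, Ccr2) and 136 for 5E1 minus PBS. Same-numbered arrays deviated together with a correlation of 0.00164 to 0.592 between groups, and the labels name no pairing. The replicate block called 1 gene for 5E1 minus 40-1a and 1 for 5E1 minus PBS. The array cluster block, added after seeing the data, called 3 genes for 5E1 minus 40-1a, 2 for 5E1 minus PBS and 3 for the difference between the agents, with 0 members among any of these. The cause of these shifts was not tested. Signal near the filter level limits Trem2, Ccr2, Ccl2 and Cybb, and the lowest array of Ptprc. Cd163, Itgam and Itgb2 were not tested. Median centring, which removes an array's median, moved the members' median for antibody minus no antibody to -0.11.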
